A study of Mus musculus with 6 samples.

Results

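The solute carrier (Slc) genes expressed in mouse bone marrow-derived macrophages were compared between 2 treatments. A gene was included if its symbol had the form Slc, a number, the letter a and a further number, and if its mean over the 6 libraries was at least 1 FPKM (fragments scaled to the length of the transcript and the size of the library). Of 350 symbols of this form, 208 were under that level and 9 were set aside by name (Slc7a11, Slc3a2, Slc48a1, Slc40a1, Slc25a1, Slc2a1, Slc16a3, Slc7a2 and Slc1a5), which left 133 members in 37 families. They stood among 10468 genes at or above the same level and 55335 genes in the table. Names and the level over all libraries chose the members, so their expression is a description, and the rule uses no difference between the treatments. At the threshold, Slc5a3 and Slc26a6 were just inside with means of 1.06 and 1.21 FPKM, and Slc25a40 and Slc25a26 were just outside with 0.961 and 0.934 FPKM. Among the 133, 4 genes share the symbol without being carrier genes, namely the scaffold gene Slc9a3r1 (NHERF1), the adaptor gene Slc4a1ap, Slc7a6os on the strand opposite Slc7a6, and the pseudogene Slc39a1-ps.

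Solute carriers are membrane proteins that move amino acids, sugars, nucleosides, organic acids, metal ions and other small molecules across the plasma membrane and the membranes of organelles. Families are numbered by sequence relation, and members of a family often share a substrate class but differ in direction of transport, partner proteins and compartment. In macrophages they include the phagosomal metal transporter Slc11a1, which withholds metals from ingested microbes, and the endolysosomal peptide transporters Slc15a3 and Slc15a4.

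The macrophages were grown for 6 days from marrow of male wildtype C57BL/6 mice aged 6 to 8 weeks. In the CM + 4OI group they received, for 4 h, conditioned medium mixed 1:1 together with 200 µM 4-octyl itaconate, an ester that enters cells and is derived from itaconate, a metabolite of activated macrophages. In the CM group they received the same medium for 4 h without the ester. The medium came from pancreatic acinar cells stimulated for 5 h with 200 nM caerulein, a peptide used to model acute pancreatitis, so both groups carry this stimulus. Each group has 3 libraries from cultures that the labels' protocols call independent, and untreated macrophages and macrophages given the ester alone were not analysed here.

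Estimated depth was 18.0 to 25.3 M fragments per library (M, mega), so that 1 FPKM of a transcript of 2000 nt stood for 36.0 to 50.7 fragments. The 10 macrophage marker genes summed to 11688 to 12847 FPKM, and in the limma fit used below 5 of them were lower in CM + 4OI and 5 not called. Fibroblast markers summed to 79.9 FPKM in CM + 4OI replicate 2 and to 113 FPKM in CM replicate 2, against 19.1 to 24.3 FPKM in the other libraries, and of the 6 tested none was called by limma, nor had any an unadjusted p under 0.05. Neutrophil markers summed to 58.0 to 97.7 FPKM with Ly6g at 0, and acinar markers to 7.81 to 16.2 FPKM with 1 of 5 tested higher. The part of these cells in the results was not tested, and counts of members and classes that move by over 1.5 times without both replicates numbered 2 are given below with that value. In bulk RNA, fewer cells of a type and less RNA per cell cannot be told apart.

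The members held 2123 to 2206 FPKM per library, which was 0.715% to 0.764% of all FPKM. Their median level was 6.07 FPKM, against 6.05 FPKM for all genes tested, and 59 of the 133 were under 5 FPKM. Only Slc15a3, Slc7a8, Slc25a5, Slc6a6 and Slc11a1 had means of at least 100 FPKM, and these 5 held 40.8% of the members' summed FPKM. The endolysosomal peptide and histidine transporter Slc15a3 was the most abundant, with a mean of 334 FPKM.

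Between the groups, 27 of the 133 members were higher and 21 lower in CM + 4OI, and 85 were not called (limma on log2(FPKM + 1), Benjamini-Hochberg adjusted p under 0.05 over all genes tested). These are 20.3% and 15.8% of the members. Of all genes tested, 19.3% were higher, 13.2% lower and 32.5% either, so the members' shares lay near the background in both directions. The class counts below are to be read beside these background shares. In 69 members (51.9%) the samples of the groups did not overlap, against 49.0% of all genes tested. Without the 4 genes that are not carrier genes, 27 of 129 were higher and 20 lower. Slc5a3 passed the level only through CM + 4OI, where it was higher. Without it 26 of 132 were higher, and in 68 of 132 (51.5%) the groups did not overlap. When both replicates numbered 2 were left out, 13 members were lower in place of 21, and 21 of those higher and 13 of those lower were called in both fits. After median-of-ratios scaling 23 members were higher (22 without Slc5a3) and 23 lower. Of the calls among all genes 44.7% were then higher, against 59.3% as deposited. The median log2 fold change was 0.04 over the members and 0.06 over all genes tested. Most differences were small, and the mean FPKM differed by at least 2-fold upward in 3 members (Slc16a6, Slc22a4 and Slc16a9) and downward in 3 (Slc28a2, Slc2a6 and Slc12a9).

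A call was termed steady if it kept its direction and an adjusted p under 0.05 in each fit that left out 1 library and in a fit with replicate numbers as blocks. Of the members, 21 had a steady call upward (20 without Slc5a3) and 16 downward, while 11.0% and 10.0% of all genes tested did. Of the 85 members not called, 69 had a 95% confidence interval of the log2 fold change within 0.5 of 0 on either side. The 6 members with a difference of at least 2-fold all had a steady call.

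**Figure D1:**
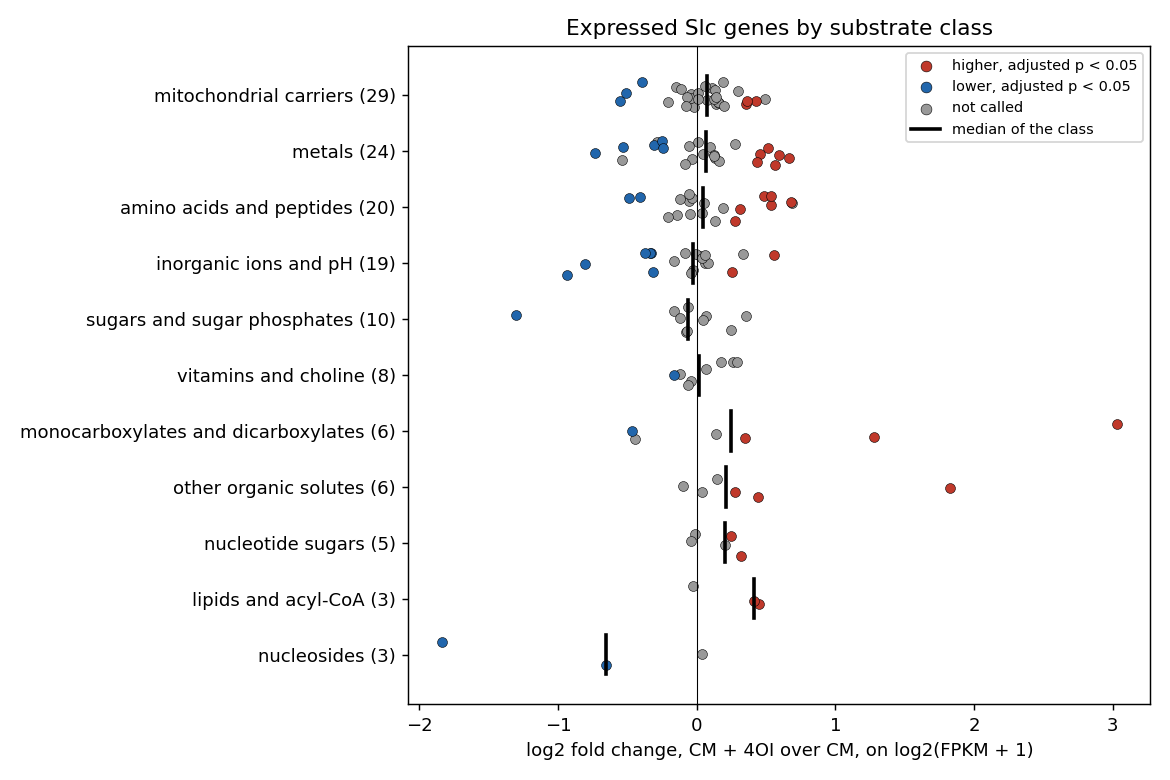
Log2 fold change (CM + 4OI over CM, on log2(FPKM + 1)) of each of the 133 members, grouped by substrate class with the number of members in parentheses, the 4 genes that are no carrier genes included. Red and blue points are higher and lower at an adjusted p under 0.05, grey points were not called, and black bars are class medians; Slc16a6 at 3.03, Slc22a4 at 1.83 and Slc16a9 at 1.28 lie farthest to the right, and Slc28a2 at −1.83 and Slc2a6 at −1.30 farthest to the left.

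Promoter windows of 250 bases before to 50 bases after the start were available for 103 of the 133 members (RefSeq, GRCm38.p6), and 6 are shown. The first 3 belong to members with a difference of at least 2-fold. Slc22a4 lies at chr11:54028055-54028354 on the minus strand, Slc16a9 at chr10:70245026-70245325 on the plus strand and Slc28a2 at chr2:122426185-122426484 on the plus strand. The other 3 are windows of steady members that hold a match to TGACNNNGC, the core of the antioxidant response element. Slc7a1 is at chr5:148399855-148400154 on the minus strand, Slc41a2 at chr10:83337768-83338067 on the minus strand and Slc39a1 at chr3:90247942-90248241 on the plus strand. Each is written 5′ to 3′ on the gene's strand, and capitals mark the match to TGACNNNGC on either strand.
Slc22a4: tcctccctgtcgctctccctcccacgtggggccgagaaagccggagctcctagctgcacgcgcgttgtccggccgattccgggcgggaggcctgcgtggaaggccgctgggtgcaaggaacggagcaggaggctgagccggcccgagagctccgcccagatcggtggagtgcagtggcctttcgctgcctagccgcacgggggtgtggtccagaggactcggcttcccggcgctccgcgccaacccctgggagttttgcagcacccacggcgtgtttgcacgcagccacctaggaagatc
Slc16a9: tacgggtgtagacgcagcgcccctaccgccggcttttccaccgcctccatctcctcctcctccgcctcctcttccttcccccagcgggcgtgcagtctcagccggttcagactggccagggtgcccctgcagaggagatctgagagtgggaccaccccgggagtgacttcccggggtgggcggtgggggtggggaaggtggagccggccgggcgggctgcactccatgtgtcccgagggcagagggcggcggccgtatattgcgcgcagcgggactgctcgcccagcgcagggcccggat
Slc28a2: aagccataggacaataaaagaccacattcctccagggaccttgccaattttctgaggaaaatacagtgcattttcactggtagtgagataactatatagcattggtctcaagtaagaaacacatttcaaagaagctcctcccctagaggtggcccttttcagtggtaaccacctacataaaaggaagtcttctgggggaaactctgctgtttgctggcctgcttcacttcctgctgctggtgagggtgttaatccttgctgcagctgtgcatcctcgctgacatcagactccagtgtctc
Slc7a1: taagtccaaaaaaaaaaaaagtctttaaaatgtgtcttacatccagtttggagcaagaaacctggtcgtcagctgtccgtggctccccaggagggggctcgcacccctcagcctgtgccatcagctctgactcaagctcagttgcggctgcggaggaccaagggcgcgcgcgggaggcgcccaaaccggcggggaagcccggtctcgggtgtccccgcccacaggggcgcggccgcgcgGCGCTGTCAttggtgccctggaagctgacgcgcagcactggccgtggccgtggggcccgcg
Slc41a2: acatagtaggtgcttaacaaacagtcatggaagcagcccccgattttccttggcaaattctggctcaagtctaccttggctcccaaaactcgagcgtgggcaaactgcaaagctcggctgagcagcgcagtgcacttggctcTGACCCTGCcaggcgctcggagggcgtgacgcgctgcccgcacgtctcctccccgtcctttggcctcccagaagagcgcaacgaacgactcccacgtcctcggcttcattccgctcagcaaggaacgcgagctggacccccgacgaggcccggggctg
Slc39a1: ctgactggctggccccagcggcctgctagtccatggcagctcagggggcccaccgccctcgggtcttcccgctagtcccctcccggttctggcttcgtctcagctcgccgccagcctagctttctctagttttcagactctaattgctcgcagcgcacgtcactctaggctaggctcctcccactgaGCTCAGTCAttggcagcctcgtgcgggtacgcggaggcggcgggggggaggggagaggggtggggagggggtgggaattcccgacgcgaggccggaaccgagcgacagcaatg
The windows of Slc22a4, Slc16a9 and Slc28a2 held no match. The centre of the match lay at position −7 from the start in Slc7a1, on the gene's minus strand, at −104 in Slc41a2, on its plus strand, and at −59 in Slc39a1, on its minus strand. On both strands, TGACNNNGC was found in 24 of the 103 windows (23.3%), against 12.4% of 32851 windows in the table and 14.8% of 9501 windows of tested genes. By call, 5 of 18 members that were higher held it (27.8%), 4 of 18 that were lower (22.2%) and 15 of 67 not called (22.4%). The members counted as higher include Slc5a3, which held no match and passed the level only through CM + 4OI. The holders that were higher were Slc25a33, Slc38a2, Slc41a2, Slc7a1 and Slc7a6, and those that were lower were Slc25a25, Slc31a2, Slc39a1 and Slc39a13. TGATGNAA, a motif of amino acid response elements, was found in 3 of 103 windows (2.91%), against 3.97% of all windows and 2.28% of windows of tested genes. Overlaps between matches of both motifs were kept, and a match describes letters in a window, not a bound site.

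Among the 6 monocarboxylate family (Slc16) members, 3 rose and 1 fell, and 2 fell when CM + 4OI replicate 3 was left out. Slc16a6 (MCT7, which exports ketone bodies from liver cells in zebrafish) had the largest difference of all members. It stood at 27.7, 35.1 and 32.0 FPKM in CM + 4OI replicates 1, 2 and 3, against 3.20, 3.21 and 2.56 FPKM in CM replicates 1, 2 and 3, the order of replicates kept in all lists of values below. All CM + 4OI samples were far above all CM samples, by 10.6-fold in the means (log2 fold change 3.03, SE 0.11, limma adjusted p = 1.69e-05). Exons of Amz2 on the opposite strand cover 21.5% of the Slc16a6 exons, and Amz2 itself was at 3.34 ± 0.135 FPKM in CM + 4OI and 3.10 ± 0.119 FPKM in CM (SD, n = 3 each, as for all errors below).

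Slc16a9 (MCT9, linked to carnitine export in human cells) was low in both groups, with 3.62, 4.16 and 3.90 FPKM in CM + 4OI, against 0.992, 1.04 and 1.01 FPKM in CM. The groups did not overlap, and the mean was 3.85-fold higher with the ester (log2 fold change 1.28, SE 0.065, limma adjusted p = 5.26e-05). Gm7097 on the opposite strand covers 12.7% of its exons and was listed at 0. Slc16a13 also rose, with a log2 fold change of 0.35 and a limma adjusted p of 0.00268. Slc16a10 (TAT1, a transporter of aromatic amino acids) fell, and averaged 9.24 ± 0.309 FPKM in CM + 4OI and 13.1 ± 0.582 FPKM in CM (log2 fold change −0.46, SE 0.050, limma adjusted p = 0.000843). The lactate and pyruvate transporter Slc16a1 (MCT1) was not called, with a log2 fold change of 0.14 and a 95% interval of −0.038 to 0.31. Slc16a7 (MCT2) differed over 2-fold among samples of 1 group, and its interval of −0.90 to 0.017 was the widest of the family. Of 3 chaperone genes that bring these transporters to the membrane, 1 was called higher, and 2 were without CM replicate 3. Emb averaged 34.03 ± 1.86 FPKM in CM + 4OI and 27.9 ± 0.821 FPKM in CM and was called higher, while Bsg was not called. Nptn averaged 30.4 ± 2.74 FPKM in CM + 4OI, against 17.4, 17.9 and 32.1 FPKM in CM, and was not called (limma adjusted p = 0.165). The call of Emb was lost without both replicates numbered 2.

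The organic cation and carnitine family (Slc22) had 2 members, of which 1 was called. Slc22a4 (OCTN1, the ergothioneine transporter) stood at 24.3, 28.04 and 29.0 FPKM in CM + 4OI, against 6.60, 6.71 and 7.41 FPKM in CM. Every CM + 4OI sample exceeded every CM sample, and the mean was 3.92-fold higher (log2 fold change 1.83, SE 0.078, limma adjusted p = 2.94e-05). Slc22a5 (OCTN2, the carnitine importer) lies 91.5 kb from it on the same strand and averaged 3.56 ± 0.0944 FPKM in CM + 4OI and 3.11 ± 0.346 FPKM in CM. Its log2 fold change was 0.15 (95% interval −0.026 to 0.33) and was not called.

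**Figure D2:**
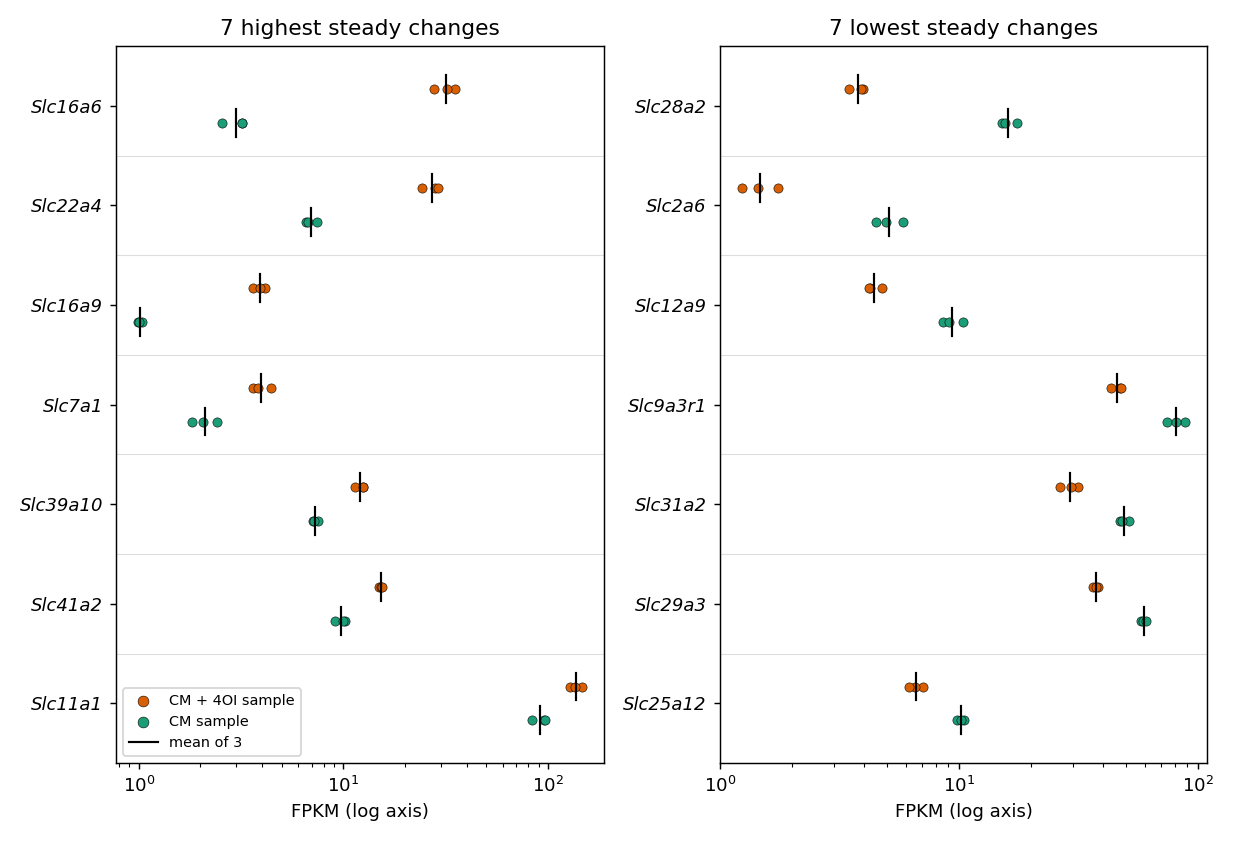
FPKM (log axis) of each CM + 4OI sample (orange, upper row) and each CM sample (green, lower row) for the 7 members with the highest (left) and the 7 with the lowest (right) steady log2 fold change; black ticks are means of 3. In each gene shown the points of the groups do not overlap, and Slc16a6, Slc22a4, Slc16a9, Slc28a2 and Slc2a6 show the widest gaps.

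All 3 nucleoside transporters are known for uptake or release of purine and pyrimidine nucleosides, and 2 of them fell. Slc28a2 (CNT2, a sodium-coupled importer of purine nucleosides and uridine) was at 3.46, 3.97 and 3.88 FPKM in CM + 4OI, against 15.1, 15.6 and 17.4 FPKM in CM. The samples with the ester were all below those without it, and the mean was 4.25-fold lower in CM + 4OI (log2 fold change −1.83, SE 0.072, limma adjusted p = 2.16e-05). Slc29a3 (ENT3, the lysosomal equilibrative transporter) had 36.2, 37.9 and 37.4 FPKM in CM + 4OI, against 57.8, 58.9 and 60.6 FPKM in CM. Its groups did not overlap either (log2 fold change −0.65, SE 0.039, limma adjusted p = 8.76e-05). Slc29a1 (ENT1, at the plasma membrane) averaged 8.34 ± 0.370 FPKM in CM + 4OI and 8.12 ± 1.02 FPKM in CM, and its log2 fold change of 0.040 (95% interval −0.17 to 0.25) was not called.

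Of the 10 sugar and sugar phosphate transporters, 1 was lower, and the other 9 were not called. Slc2a6 (GLUT6, an intracellular member of the glucose transporter family) had 1.45, 1.23 and 1.74 FPKM in CM + 4OI, against 4.95, 4.50 and 5.85 FPKM in CM. The highest CM + 4OI sample was far under the lowest CM sample, and the mean was 3.45-fold lower (log2 fold change −1.30, SE 0.11, limma adjusted p = 0.000325). Slc37a2, a sugar phosphate exchanger known from macrophages, was the most abundant of the class, with 70.2 ± 9.81 FPKM in CM + 4OI and 54.9 ± 10.2 FPKM in CM. It was not called (log2 fold change 0.36, 95% interval −0.020 to 0.73).

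Amino acid and peptide transporters numbered 19, of which 6 rose (31.6%) and 2 fell (10.5%). Of the genes that rose, Slc7a1 (CAT1, an importer of arginine and lysine) had 3.62, 4.41 and 3.82 FPKM in CM + 4OI, against 1.82, 2.42 and 2.07 FPKM in CM. Each CM + 4OI sample was above each CM sample (log2 fold change 0.68, SE 0.10, limma adjusted p = 0.00259). Slc7a6 (y+LAT2, an exchanger of cationic for neutral amino acids) averaged 4.10 ± 0.319 FPKM in CM + 4OI and 2.52 ± 0.231 FPKM in CM (log2 fold change 0.54, SE 0.077, limma adjusted p = 0.00271). Slc7a6os, which lies 2.01 kb from it on the other strand, had a log2 fold change of 0.19 and was not called.

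In the same family, 2 light chains fell. Slc7a7 (y+LAT1, the close relative of Slc7a6) had 7.90, 7.57 and 7.69 FPKM in CM + 4OI, against 11.3, 11.1 and 11.3 FPKM in CM. The samples of each group lay close together and apart from the other group (log2 fold change −0.49, SE 0.041, limma adjusted p = 0.000299), with exons of Oxa1l on the opposite strand over 6.998% of its exons. Slc7a8 (LAT2, a neutral amino acid exchanger) was the second most abundant member and averaged 159 ± 7.82 FPKM in CM + 4OI and 211 ± 13.8 FPKM in CM (log2 fold change −0.41, SE 0.061, limma adjusted p = 0.00330). Slc7a5 (LAT1) was not called, with a log2 fold change of −0.20 and a 95% interval of −0.47 to 0.062. The difference between the relatives that rose and those that fell is shown in the plot of 6 families.

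The sodium-coupled neutral amino acid transporters Slc38a1 and Slc38a2 lie 44.5 kb apart on one strand and both rose. Slc38a2 (SNAT2, which responds to amino acid supply in many cells) was at 14.3, 15.7 and 13.6 FPKM in CM + 4OI, against 9.49, 10.8 and 8.80 FPKM in CM. The lowest CM + 4OI sample was above the highest CM sample (log2 fold change 0.54, SE 0.086, limma adjusted p = 0.00428). Slc38a1 (SNAT1) averaged 3.85 ± 0.0786 FPKM in CM + 4OI and 2.91 ± 0.182 FPKM in CM (log2 fold change 0.31, limma adjusted p = 0.00737). The other 4 members of this family were not called. Slc38a10, the most abundant of them, averaged 14.1 ± 0.532 FPKM in CM + 4OI and 14.7 ± 0.907 FPKM in CM, and Slc38a9, a lysosomal arginine sensor, had a log2 fold change of −0.14 (95% interval −0.31 to 0.022).

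The taurine transporter Slc6a6, one of the most abundant members, averaged 114 ± 2.40 FPKM in CM + 4OI and 119 ± 5.49 FPKM in CM and was not called (95% interval of the log2 fold change −0.17 to 0.053). The creatine transporter Slc6a8 averaged 37.4 ± 1.33 FPKM in CM + 4OI and 30.7 ± 2.10 FPKM in CM and rose (limma adjusted p = 0.0134). Its adjusted p was 0.0720 after median-of-ratios scaling and 0.0960 without both replicates numbered 2. Slc36a4, an amino acid transporter, was also higher, with 9.17 ± 1.10 FPKM in CM + 4OI and 6.26 ± 0.763 FPKM in CM (limma adjusted p = 0.0146). It lost its call without CM replicate 3 (adjusted p = 0.0505). Its relative Slc36a1 had 3.86 FPKM in CM replicate 1 and 12.04 and 13.5 FPKM in CM replicates 2 and 3, a spread over 2-fold within the group. It was not called.

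Among transporters of peptides and cyclic dinucleotides, which can carry ligands towards cytosolic and endosomal receptors, none of 5 was called by limma, and none had an unadjusted p under 0.05. Slc15a3 was at 349, 336 and 303 FPKM in CM + 4OI, against 327, 336 and 354 FPKM in CM. The groups overlapped, and the 95% interval of its log2 fold change was −0.20 to 0.11. Exons of Tmem132a on the opposite strand cover 28.1% of its exons, and Tmem132a averaged 89.1 ± 7.01 FPKM in CM + 4OI and 55.8 ± 13.9 FPKM in CM. Slc15a4 (log2 fold change 0.13), the reduced folate carrier Slc19a1 (0.26), which imports cyclic dinucleotides in human cells, the proton-coupled folate transporter Slc46a1 (−0.038) and the lysosomal Slc46a3 (−0.059) were not called, and Slc46a2 was under the level for inclusion.

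**Figure D3:**
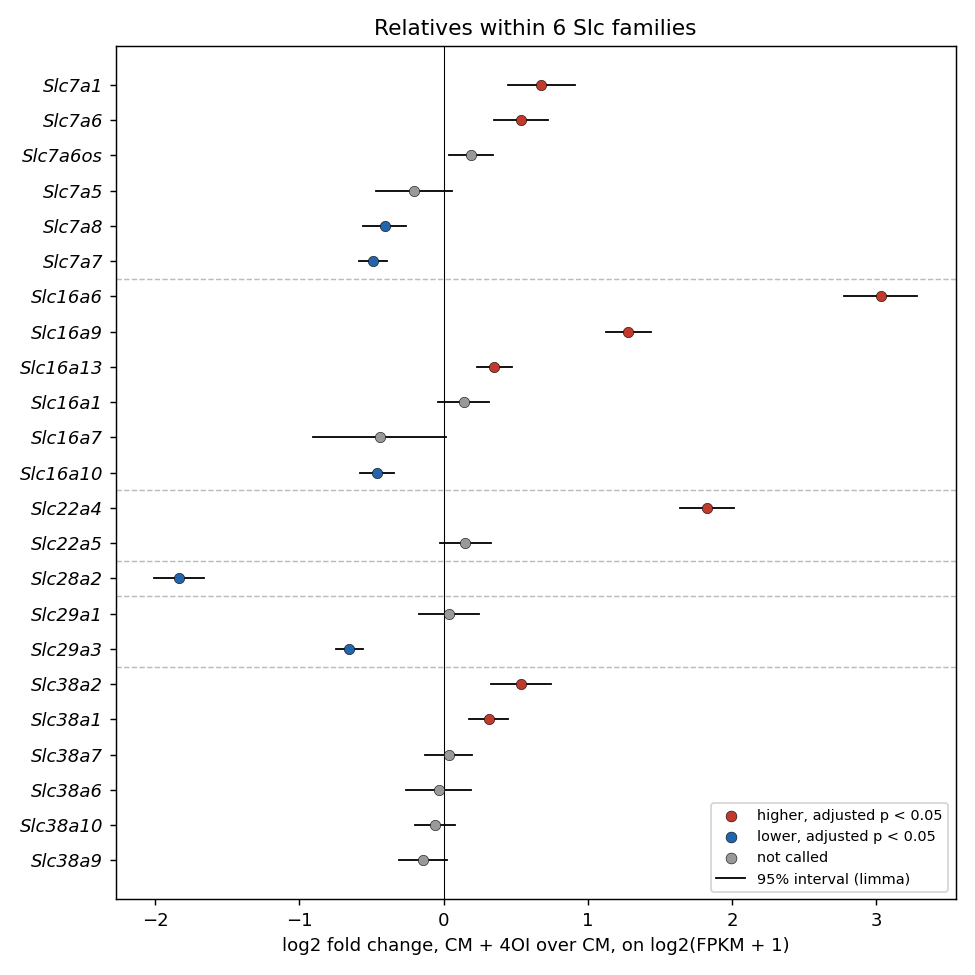
Log2 fold change (CM + 4OI over CM, on log2(FPKM + 1)) with its 95% interval from limma for the members of the Slc7, Slc16, Slc22, Slc28, Slc29 and Slc38 families, separated by dashed lines. Red and blue points were called higher and lower and grey points were not called; Slc7a1 and Slc7a6 lie right of 0 and Slc7a7 and Slc7a8 left of it, and Slc22a5 and Slc29a1 have intervals that include 0.

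Metal ion transporters numbered 23, of which 6 rose (26.1%) and 5 fell (21.7%). Without both replicates numbered 2, 2 were lower in place of 5. The phagosomal divalent metal transporter Slc11a1 (NRAMP1) was at 146, 128 and 135 FPKM in CM + 4OI, against 96.0, 83.2 and 96.2 FPKM in CM. All samples with the ester were above all samples without it (log2 fold change 0.57, SE 0.075, limma adjusted p = 0.00197). Slc11a2 (DMT1, its relative in endosomes) fell, with 6.99 ± 0.257 FPKM in CM + 4OI and 8.87 ± 0.320 FPKM in CM (limma adjusted p = 0.00445), and missed the threshold without both replicates numbered 2 (adjusted p = 0.0535). Gm5475 on the opposite strand covers 6.33% of its exons.

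The copper transporters Slc31a1 and Slc31a2, 62.3 kb apart on one strand, were both lower. Slc31a2 (CTR2, found on endosomes and lysosomes) had 31.3, 26.5 and 29.3 FPKM in CM + 4OI, against 51.2, 47.1 and 48.1 FPKM in CM. No sample of one group reached the range of the other (log2 fold change −0.73, SE 0.068, limma adjusted p = 0.000466). Slc31a1 (CTR1, the plasma membrane copper importer) was at 22.3, 20.3 and 17.3 FPKM in CM + 4OI, against 31.9, 28.5 and 27.4 FPKM in CM. Here too the groups were apart (log2 fold change −0.53, SE 0.10, limma adjusted p = 0.00807), although without both replicates numbered 2 the adjusted p was 0.0564.

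Zinc importers of the Slc39 family moved in both directions. Slc39a10 averaged 12.1 ± 0.603 FPKM in CM + 4OI and 7.25 ± 0.192 FPKM in CM and rose (log2 fold change 0.67, SE 0.051, limma adjusted p = 0.000214). Slc39a14, which also takes up iron not bound to transferrin, averaged 5.97 ± 0.567 FPKM in CM + 4OI and 4.09 ± 0.423 FPKM in CM (log2 fold change 0.45, SE 0.089, limma adjusted p = 0.00983), with an adjusted p of 0.0636 without both replicates numbered 2. Slc39a6 rose as well, with a log2 fold change of 0.44 (limma adjusted p = 0.00568).

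Slc39a1, the most abundant zinc importer, fell and had 57.3, 59.0 and 57.6 FPKM in CM + 4OI, against 70.3, 68.5 and 68.8 FPKM in CM. Its groups lay apart by a small margin relative to the level (log2 fold change −0.25, SE 0.035, limma adjusted p = 0.00230). Slc39a13, a zinc transporter of the secretory pathway, was lower at an adjusted p of 0.0352, and lost the call whenever a library other than CM replicate 3 was removed (adjusted p up to 0.106) and without both replicates numbered 2 (0.123). The zinc exporter Slc30a1 averaged 41.2 ± 2.43 FPKM in CM + 4OI and 38.5 ± 3.14 FPKM in CM and was not called, nor were the other 5 members of the Slc30 family.

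Of the 3 magnesium transporters of the Slc41 family, 2 were higher. Slc41a2 had 14.9, 15.3 and 15.5 FPKM in CM + 4OI, against 10.2, 9.09 and 9.92 FPKM in CM. The CM + 4OI samples lay close together above all CM samples (log2 fold change 0.60, SE 0.053, limma adjusted p = 0.000385). Slc41a1 was low, with 2.55 ± 0.429 FPKM in CM + 4OI and 1.496 ± 0.340 FPKM in CM (limma adjusted p = 0.0267). It lost its call when the first or the third CM library (adjusted p = 0.0646 and 0.0698) or the second or the third CM + 4OI library (0.0778 and 0.0663) was removed.

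**Figure D4:**
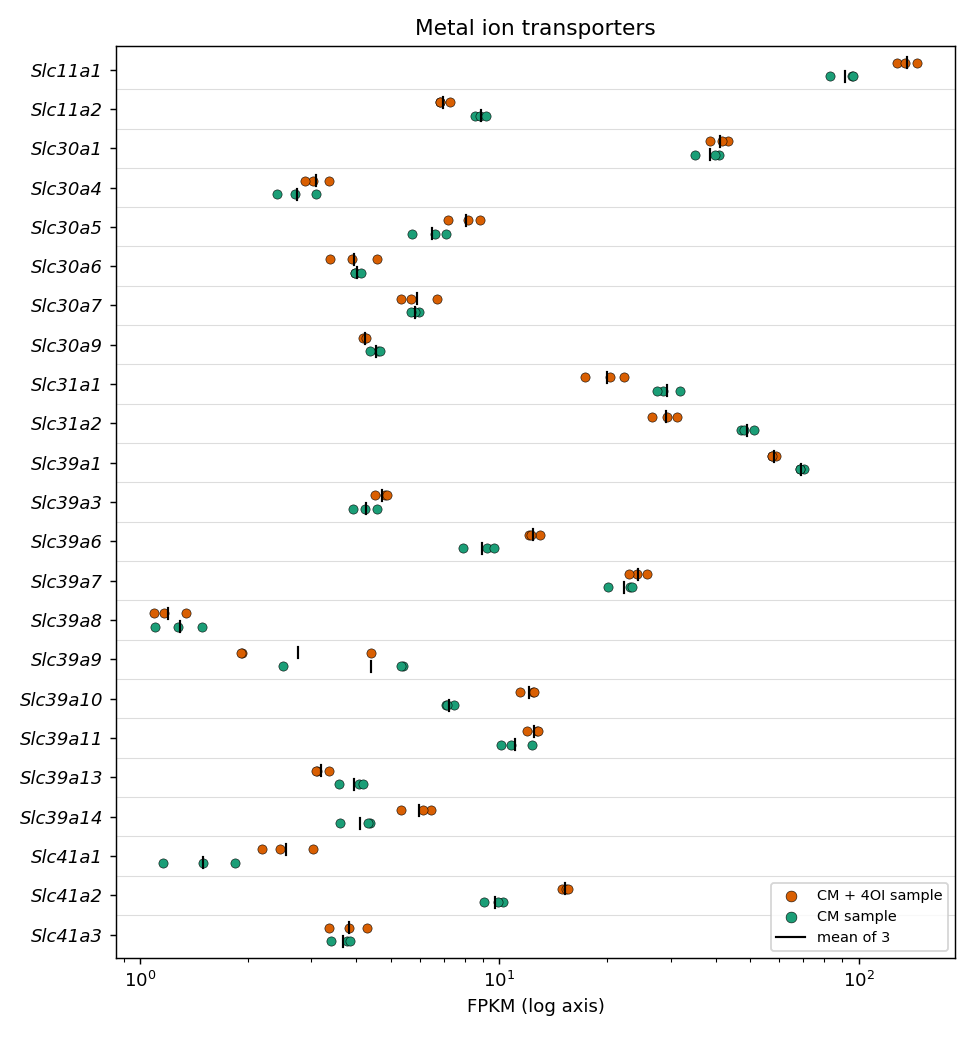
FPKM (log axis) of each CM + 4OI sample (orange, upper row) and each CM sample (green, lower row) for the 23 metal transporters, with means of 3 as black ticks. Slc11a1, Slc39a10 and Slc41a2 lie higher and Slc31a1, Slc31a2 and Slc39a1 lower in every CM + 4OI sample, and Slc39a9 spreads over 2-fold within each group.

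Inorganic ion and pH transporters numbered 17, and 2 were higher (11.8%) and 5 lower (29.4%). Without CM + 4OI replicate 1 or 3, or without both replicates numbered 2, 3 were lower. Slc12a9, a member of the cation-chloride cotransporter family, had 4.74, 4.26 and 4.19 FPKM in CM + 4OI, against 10.4, 8.59 and 9.07 FPKM in CM. The mean was 2.13-fold lower with the ester, and no samples overlapped (log2 fold change −0.94, SE 0.080, limma adjusted p = 0.000323). Its relative Slc12a7 (KCC4, a potassium-chloride cotransporter) also fell (log2 fold change −0.31, limma adjusted p = 0.00636). Slc12a4 (KCC1) averaged 24.7 ± 1.03 FPKM in CM + 4OI and 26.2 ± 0.134 FPKM in CM and was not called.

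Slc9a3r1, a scaffold that binds membrane transporters and is no carrier itself, was at 46.9, 43.1 and 47.7 FPKM in CM + 4OI, against 88.2, 74.1 and 80.9 FPKM in CM. It was lower in every sample with the ester (log2 fold change −0.81, SE 0.074, limma adjusted p = 0.000425).

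The anion exchanger Slc4a2 was higher, with 6.96 ± 0.267 FPKM in CM + 4OI and 5.67 ± 0.296 FPKM in CM (limma adjusted p = 0.0137). The call was lost without CM + 4OI replicate 2 (adjusted p = 0.0516), which left 1 gene of the class higher in place of 2, and median-of-ratios scaling left 1 as well. Fastk on the opposite strand covers 13.7% of the Slc4a2 exons. The sodium-calcium exchanger Slc8a1 was lower, with 4.82 ± 0.257 FPKM in CM + 4OI and 6.37 ± 0.949 FPKM in CM (limma adjusted p = 0.0405), but lost the call under the block of replicate numbers (adjusted p = 0.0627) and whenever CM replicate 3 or a CM + 4OI library was removed (up to 0.1104). Slc26a11 was lower at an adjusted p of 0.0274 and lost the call on removal of either the first or second CM library (0.0720 and 0.0508) or of the first or the third CM + 4OI library (0.0652 and 0.0817). The sulfate transporter Slc26a2 averaged 5.77 ± 0.2897 FPKM in CM + 4OI and 5.49 ± 0.251 FPKM in CM and was not called.

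Mitochondrial carriers (Slc25) were the largest family, with 29 members, of which 3 rose (10.3%) and 3 fell (10.3%). Slc25a12 (aralar, the aspartate-glutamate carrier of the malate-aspartate shuttle) had 7.08, 6.54 and 6.201 FPKM in CM + 4OI, against 10.5, 9.78 and 10.2 FPKM in CM. The groups were apart (log2 fold change −0.55, SE 0.058, limma adjusted p = 0.000756). Slc25a25, a calcium-dependent ATP-Mg and phosphate carrier, was low, with 1.34, 1.18 and 1.06 FPKM in CM + 4OI, against 1.86, 1.80 and 2.001 FPKM in CM. It also fell (log2 fold change −0.40, SE 0.075, limma adjusted p = 0.00870), but had an adjusted p of 0.0560 without both replicates numbered 2, where 1 carrier was lower in place of 3.

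Another ATP-Mg and phosphate carrier, Slc25a24, rose and averaged 23.5 ± 0.419 FPKM in CM + 4OI and 17.2 ± 1.16 FPKM in CM (limma adjusted p = 0.00175). Slc25a20, which exchanges carnitine and acylcarnitines, rose too, with 7.15 ± 0.525 FPKM in CM + 4OI and 5.36 ± 0.117 FPKM in CM (limma adjusted p = 0.00527). The pyrimidine nucleotide carrier Slc25a33 was higher at an adjusted p of 0.0211, and missed the threshold without CM replicate 2 (0.0582) or CM replicate 3 (0.0550), and Gm13068 on the opposite strand covers 14.9% of its exons. The glutamate carrier Slc25a22 was lower at an adjusted p of 0.0387, and lost the call under the block of replicate numbers (0.0645) and without any 1 library other than CM replicate 1 (up to 0.115).

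The ADP/ATP carrier Slc25a5 was the most abundant of the family, with 138 ± 2.37 FPKM in CM + 4OI and 137 ± 1.29 FPKM in CM, and its log2 fold change of 0.0072 (95% interval −0.075 to 0.089) was not called. Carriers of itaconate-like dicarboxylates were not called either. The dicarboxylate carrier Slc25a10 averaged 2.92 ± 0.2902 FPKM in CM + 4OI and 3.36 ± 0.649 FPKM in CM, and the oxoglutarate carrier Slc25a11 averaged 22.7 ± 1.00 FPKM in CM + 4OI and 21.5 ± 0.962 FPKM in CM. The plasma membrane dicarboxylate transporters Slc13a2, Slc13a3 and Slc13a5 were under the level for inclusion.

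The remaining classes were small. Of 3 lipid and acyl-CoA transporters, 2 rose. The fatty acid transport protein gene Slc27a4 rose, with 10.1, 9.60 and 10.6 FPKM in CM + 4OI, against 7.04, 7.20 and 7.20 FPKM in CM. Its samples with the ester were all above those without it (log2 fold change 0.45, SE 0.050, limma adjusted p = 0.000935). Slc33a1, the acetyl-CoA transporter of the endoplasmic reticulum, rose with a log2 fold change of 0.41 (limma adjusted p = 0.0118), and Gm26850 on the opposite strand covers 32.0% of its exons.

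Of 6 transporters of other organic solutes, Slc22a4 above and Slc10a3 were higher. The class count of 3 higher also includes Slc5a3, which passed the level only through CM + 4OI. Slc5a3, the sodium-coupled importer of myo-inositol, was at 1.23, 1.64 and 1.26 FPKM in CM + 4OI, against 0.689, 0.847 and 0.697 FPKM in CM. It was the only member with a mean under 1 FPKM in CM, so its inclusion rested on CM + 4OI and its difference is given with no test. Slc10a3 averaged 8.22 ± 0.530 FPKM in CM + 4OI and 6.61 ± 0.545 FPKM in CM and was higher at an adjusted p of 0.0281. It lost the call on removal of the second or the third CM library or of the first or second CM + 4OI library (adjusted p up to 0.0912) and after median-of-ratios scaling (0.0904).

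The 5 nucleotide sugar transporters are those with Slc35a symbols, and Slc35 genes with other letters are counted below. Of the 5, Slc35a3, a Golgi transporter of UDP-N-acetylglucosamine, rose with a log2 fold change of 0.32 (limma adjusted p = 0.00280). Slc35a4 was higher at an adjusted p of 0.0293. The call was lost on removal of any CM library (0.0618, 0.0710 and 0.0834) or of CM + 4OI replicate 2 (0.0561). It was also lost after median-of-ratios scaling (0.114) and without both replicates numbered 2. Each of these left 1 gene of the class higher in place of 2. Of 8 vitamin and choline transporters, 1 was called. The choline transporter Slc44a1 was lower at an adjusted p of 0.0355, and lost the call under the block of replicate numbers (0.0546) and without any 1 library other than CM replicate 2 (up to 0.0998). Slc44a1 averaged 17.8 ± 0.376 FPKM in CM + 4OI and 19.96 ± 0.776 FPKM in CM, a difference of −0.16 on the log2 scale. Under that block the thiamine transporter Slc19a2 was higher instead (limma adjusted p = 0.0231, against 0.0550 without the block).

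The calls of Slc4a2, Slc8a1, Slc10a3, Slc25a22, Slc25a33, Slc26a11, Slc35a4 and Slc44a1 (the one call of its class) were also lost without both replicates numbered 2 (limma adjusted p 0.0689 to 0.213). Of the members named but not called, Slc12a4, Slc15a4, Slc25a10, Slc25a11, Slc29a1, Slc30a1 and Slc38a10 had exons of a gene on the opposite strand over 5.72% to 8.92% of their exons. Ubl4a on the same strand covers 12.8% of the Slc10a3 exons.

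Genes of the superfamily outside the symbol rule were also counted. Of 19 tested that carry other symbols, 5 were higher (26.3%) and 14 not called, while 19.3% of all genes tested were higher and 13.2% lower. Without CM + 4OI replicate 2 or 3, 3 were higher, and without both replicates numbered 2, 2 were. Of the 5, the lysosomal cystine exporter Ctns averaged 8.77 ± 0.370 FPKM in CM + 4OI and 7.06 ± 0.111 FPKM in CM (limma adjusted p = 0.00562). Under the alternative settings its limma adjusted p reached 0.0588. Mfsd14a averaged 11.2 ± 0.137 FPKM in CM + 4OI and 8.10 ± 0.199 FPKM in CM (limma adjusted p = 0.000601). Mfsd6 averaged 8.90 ± 0.664 FPKM in CM + 4OI and 5.05 ± 0.503 FPKM in CM (limma adjusted p = 0.000987). Of 17 tested Slc genes with other letters and Slco genes, 4 were higher (23.5%) and 2 lower (11.8%). Leaving out any 1 library other than CM replicate 2 left 1 or 2 higher, and 1 was lower on removal of the first or second CM library or the first or the third CM + 4OI library. After median-of-ratios scaling there were 2 and 2, and without both replicates numbered 2 a single call was left, 1 lower. Slco3a1, an organic anion transporter, had 2.86, 1.90 and 2.04 FPKM in CM + 4OI replicates 1, 2 and 3, against 10.3, 8.27 and 9.13 FPKM in CM replicates 1, 2 and 3. The groups were far apart, with a log2 fold change of −1.65 (limma adjusted p = 0.000216).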

How the data were processed

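RNA of 6 macrophage libraries was sequenced as 150 nt paired-end reads, per the labels' protocols. Values were deposited as FPKM, computed by the authors, with 1 column per sample. FastQC 0.11.2 and build mm10 are named per the submitters' processing notes, while strandedness, aligner and quantifier were not given in the sources used here, so opposite-strand overlaps over 5% of exons are given for members named (GENCODE M21). With limma 3.58.1 (R 4.3.3), log2(FPKM + 1) was tested with a variance trend over the 10468 genes with mean FPKM of at least 1, two-sided, with Benjamini-Hochberg adjusted p under 0.05. The log2 scale with this pseudocount understates changes of low genes, folds are ratios of mean FPKM, and errors are SD over 3 replicates. The fit was tested on simulated data. Depth was estimated from the smallest FPKM steps and counts were not recovered. Deviations of samples with the same number correlated at 0.344, 0.427 and 0.185, and of others at 0.0262 at most. The sample titles mark each number as a biological replicate in both groups, but do not say what same-numbered samples share. The main fit had the group as its only term and took the samples as unpaired. It gave all values for which no other fit is named. The replicate number entered as a block in an alternative fit, which the definition of a steady call also used. Alternatives were pseudocount 0.1, filters of 0.1 and 5 FPKM, median-of-ratios and quantile scaling, no trend, the block and left-out replicates. Members and lists were chosen with earlier results of these data known. Named by rule were the 12 most raised and 12 most lowered steady members by log2 fold change, the most abundant member of each family of at least 3, both transport lists and the genes next to the threshold. Other members, called or not, were named after their values were seen, as were Ctns, Mfsd14a, Mfsd6, Slco3a1 and Slc4a11. Some members are not reported here singly. Sequences are from RefSeq.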

Additional observations from a re-analysis of the deposited data

How the results depend on the processing

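At a filter of 5 FPKM, which tests fewer genes, 21 of 74 solute carriers were higher and 16 lower. Of the 5871 genes tested at that filter, 1473 were higher and 1063 lower. Without both replicates numbered 2, 13 solute carriers were lower in place of 21, and 1089 of all genes tested were higher in place of 2020. When 1 library at a time was left out, 23 to 28 solute carriers were higher (22 to 27 without Slc5a3) and 17 to 19 lower. Of all genes tested, 1311 to 1855 were then higher, fewest without CM + 4OI replicate 2, and 1148 to 1246 lower. With fewer samples these fits have fewer degrees of freedom. With the replicate number as a block, 30 solute carriers were higher (29 without Slc5a3) and 18 lower, and 27 and 18 of the calls were shared. The block ended the calls of Slc25a22, Slc44a1 and Slc8a1 and no other call of a member. Median-of-ratios scaling shifted the median log2 fold change of all genes by −0.06. Of 576 values of named members under the alternatives, 555 kept direction and side of the threshold and 12 missed it. The other 9, none of them called, changed sign, and the cause was not tested. Slc25a5 had a log2 fold change of −0.068 and Slc26a2 of −0.0051 after that scaling. Over left-out replicates, Slc15a3 ranged between −0.088 and 0.014, Slc25a5 ranged between −0.0055 and 0.019, Slc46a1 ranged between −0.16 and 0.11 and Slc46a3 ranged between −0.20 and 0.087. Depth limits short transcripts of low level most, such as Slc39a1-ps and Slc25a33.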

Other observations

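Below the level for inclusion, 5 Slc genes had a mean of at least 1 FPKM in 1 group, and they were not tested. Slc4a11, a transporter of the bicarbonate family, had 0.330, 0.462 and 0.450 FPKM in CM + 4OI replicates 1, 2 and 3, against 1.21, 1.40 and 1.53 FPKM in CM replicates 1, 2 and 3. Its CM + 4OI samples were all under its CM samples. Slc17a9 (the vesicular nucleotide transporter), Slc25a26, Slc25a40 and Slc39a4 had means of 1.05 to 1.07 FPKM in CM + 4OI and of 0.720 to 0.850 FPKM in CM.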
